A study of Mus musculus with 6 samples.

Results

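The genes described here are the receptor tyrosine kinase Ret, its co-receptors Gfra1, Gfra2, Gfra3 and Gfra4, and the ligands Gdnf, Nrtn and Artn, followed in mouse carotid body and mouse adrenal medulla. They were chosen by name, with earlier results of these data known. All probe sets annotated to 1 of these 8 genes alone were taken, which gave 15 of the 45037 non-control probe sets on the array. All 8 genes had at least 1. The carotid body is a small oxygen sensor beside the branching of the carotid artery, and the adrenal medulla is the catecholamine-secreting core of the adrenal gland. Expression was measured on 6 microarrays, 3 per tissue, from untreated adult mice of the C57/BL6 strain. Each carotid body array held RNA of 18 organs and each adrenal medulla array RNA of 10, in both cases pooled from 10 mice. Arrays with the same number, 1 to 3, came from the same cohort of animals. No genotype or treatment separates the groups, so tissue is the compared factor. Sex-linked genes also differed between the tissues, as given below. Whole organs were pooled, and in such samples fewer cells of a type and less RNA per cell cannot be told apart.

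GDNF family ligands are secreted survival and guidance factors for peripheral neurons. Each binds by preference a GPI-anchored co-receptor, GDNF binding GFRA1, neurturin GFRA2, artemin GFRA3 and persephin GFRA4, and the pair then brings RET molecules together on the cell surface. RET passes the signal on to the MAP kinase and PI3 kinase routes. In the neural crest the system is needed for enteric and many autonomic neurons, and the oxygen-sensitive glomus cells of the carotid body are a known source of GDNF.

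The ligand Gdnf and the co-receptor Gfra4 had the largest differences of the family in the direction of carotid body and of adrenal medulla, as given below, and the DNA before their start sites is therefore shown. The sequences are the 250 bases before the start site at the gene's own edge, 5′ to 3′ on the gene's strand, from RefSeq on GRCm38.p6. The Gdnf window is chr15:7809798-7810047 (+ strand) and the Gfra4 window is chr2:131043089-131043338 (- strand). Capitals mark every match, on either strand, to TATAAA (the TATA box), ACGTG (the core bound by hypoxia-inducible factors), TGACG (a core of the cyclic AMP response element) or AGATAA (bound by GATA factors).
Gdnf: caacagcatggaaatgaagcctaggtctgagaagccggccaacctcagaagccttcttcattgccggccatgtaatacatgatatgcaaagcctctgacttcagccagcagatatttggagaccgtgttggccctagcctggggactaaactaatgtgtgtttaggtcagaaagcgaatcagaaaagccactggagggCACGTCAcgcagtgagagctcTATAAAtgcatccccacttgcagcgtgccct
Gfra4: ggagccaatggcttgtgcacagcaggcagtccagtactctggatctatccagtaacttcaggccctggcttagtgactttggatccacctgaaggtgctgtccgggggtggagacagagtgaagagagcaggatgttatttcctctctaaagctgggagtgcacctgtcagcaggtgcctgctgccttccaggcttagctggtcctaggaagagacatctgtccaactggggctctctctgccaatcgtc
The Gdnf window held TATAAA beginning 31 bases before the start. On the reverse strand it also held ACGTG and TGACG, which overlap and begin, as read on the gene's strand, 52 and 50 bases before the start. The Gfra4 window held none of these letters. Of 32851 start windows of the same length, 12.4% held TATAAA, 16.6% ACGTG, 17.8% TGACG and 9.99% AGATAA. A match describes the letters alone, and binding was not measured. Windows of 5 of the 8 genes were found by symbol. Ret, Gfra2 and Gfra3 were not found. For Gdnf and Gfra4 there were 2 windows each, and the start in use here was not measured.

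Across the family, Gdnf, Ret, Gfra1, Gfra2 and Gfra3 were higher in carotid body on at least 1 probe set each, whereas Gfra4 was higher in adrenal medulla. A probe set was called when its adjusted p was under 0.05 (limma, Benjamini-Hochberg over all probe sets) and its difference was at least 2-fold. Of the 15 member probe sets, 6 were called higher in carotid body, against 5.95% of all probe sets. They belong to 5 genes, of which Ret, Gfra1 and Gfra2 also had probe sets that were not called. One was called higher in adrenal medulla (1 of 15, against 4.58% of all), and 8 were not called. In 7 member probe sets all carotid body arrays lay above all adrenal medulla arrays, in 1 they lay below, and in 7 the tissues overlapped; over all probe sets 19.8% and 20.4% separated in these directions. The median difference of the 15 was 0.24 (log2, carotid body minus adrenal medulla) beside 0.01 for all probe sets. The genes were chosen with earlier results of these data known. The counts beside the shares of all probe sets are therefore description alone. Without carotid body array 1, which stands apart as described next, 6 and 1 were again called. Without cohort 2, which leaves 2 arrays a tissue, 1 and 1 were called.

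The tissue labels were checked on marker genes, each by its brightest probe set. The brightest glomus and chromaffin marker was Chgb, a granin of secretory granules. It was 13.53 to 13.89 in carotid body against 14.83 to 14.97 in adrenal medulla (log2 level). The summed level of 9 such genes was 33638 to 37943 in carotid body against 79978 to 104442 in adrenal medulla. Of the 9, Ddc was higher in carotid body by 0.81 (log2, adjusted p = 0.0207), under 2-fold, while 6 were called higher in adrenal medulla. Glial, fibroblast and smooth muscle genes ran the other way, with 9 of 10, 6 of 6 and 7 of 8 called higher in carotid body. Their summed levels were 17504 to 19624 against 4684 to 5018 for glia, 43683 to 52289 against 6605 to 8357 for fibroblasts, and 38809 to 44409 against 6172 to 9137 for smooth muscle and pericytes. In endothelium 2 of 5 and in macrophages 2 of 4 were higher in carotid body, with summed levels of 3464 to 3911 against 1417 to 1745 and of 3460 to 3798 against 1276 to 1660. Adrenal cortex genes summed to 67589 to 89533 in adrenal medulla, to 28497 in carotid body array 1 and to 1487 and 1062 in carotid body arrays 2 and 3; 8 of 9 were called higher in adrenal medulla. The adrenal medulla arrays thus held cortex RNA, and so did carotid body array 1. Pnmt, of the glomus and chromaffin list, was also raised on carotid body array 1, at 11.13 against 7.65 and 8.08 on arrays 2 and 3. Its adrenal medulla range was 13.17 to 13.84. Th, of the same list, was not raised on that array, at 11.42 against 11.89 and 11.76. Whether carotid body array 1 also held medulla RNA was not tested. Xist, made in female cells, ranged from 8.84 to 10.96 on the carotid body arrays against 4.45 to 5.60 on the adrenal medulla arrays, while the Y-linked Eif2s3y was 7.71 to 7.91 and 8.47 to 8.50. The log2 difference between 3' and 5' Gapdh control probe sets, which rises with RNA breakdown, was 0.59 to 1.45 in carotid body against 0.13 to 0.61 in adrenal medulla. The Xist ranges of the tissues did not overlap, so sex cannot be told apart from tissue here. The part of cell makeup, sex and RNA quality in the results below was not tested.

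**Figure D1:**
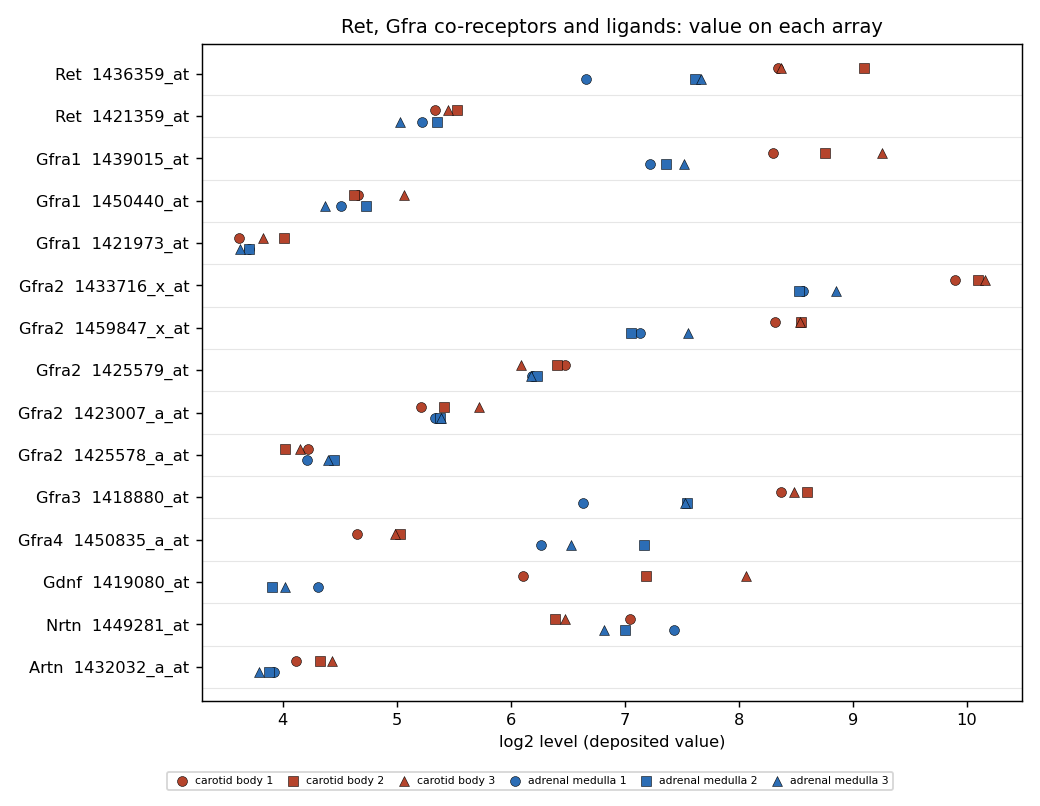
Log2 level (horizontal axis) of each member probe set (rows) on each of the 6 arrays; red symbols are carotid body, blue are adrenal medulla, and the symbol shape gives the cohort. Gdnf shows the widest gap between the tissues, Gfra4 lies higher in adrenal medulla, and the dim probe sets of Ret, Gfra1 and Gfra2 overlap or nearly so. Levels of different probe sets cannot be set against each other.

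Among the ligands, Gdnf was 6.11, 7.19 and 8.06 on carotid body arrays 1, 2 and 3 and 4.31, 3.90 and 4.02 on adrenal medulla arrays 1, 2 and 3 (probe set 1419080_at, log2 level). All carotid body values lay above all adrenal medulla values, and the carotid body arrays spread over nearly 2 log2 units. The means were 7.12 ± 0.98 and 4.08 ± 0.21 (SD, n = 3). The difference was 3.04 ± 0.43 (log2, SE), or 8.24-fold with a 95% interval of 4.10 to 16.6, at an adjusted p of 0.00246. Within cohorts 1, 2 and 3 the difference was 1.80, 3.28 and 4.05. The smallest came from the carotid body array with cortex RNA; leaving it out gave 3.55, and leaving out array 3 gave 2.57. Without cohort 2 it was 2.92 with an adjusted p of 0.069.

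The adrenal medulla level of Gdnf was near the floor of the scale. As a rough guide to that floor, 39 probe sets of olfactory receptor genes other than Olfr78 and Olfr558, genes mostly silent outside the nose, had a 95th percentile of 4.63 in carotid body against 4.49 in adrenal medulla. Gdnf in adrenal medulla lay under this mark, and in carotid body it lay above. The files used here hold no detection calls, so whether Gdnf RNA was present in adrenal medulla cannot be told, and differences that reach the floor are compressed.

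Neurturin, encoded by Nrtn, did not follow Gdnf. Its level was 7.04, 6.39 and 6.48 in carotid body against 7.43, 7.00 and 6.82 in adrenal medulla (1449281_at). The ranges overlapped, through carotid body array 1. The difference was -0.45 ± 0.22 (log2, SE; adjusted p = 0.2; blocked by cohort, 0.0455), lower in carotid body in all 3 cohorts and under 2-fold. Its 95% interval, -0.96 to 0.07, leaves out a 2-fold change in either direction.

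Artemin, encoded by Artn, was 4.12, 4.32 and 4.43 in carotid body against 3.93, 3.88 and 3.80 in adrenal medulla (1432032_a_at). The groups did not overlap, yet all 6 values lay under the olfactory receptor mark. The difference was 0.42 ± 0.12 (log2, SE; adjusted p = 0.0431; blocked by cohort, 0.0712) and was not called, being under 2-fold. Leaving out single arrays gave an adjusted p of up to 0.144, and 0.0287 without carotid body array 1. Pspn, which encodes persephin and is not among the 8 genes, was 3.93 ± 0.07 in carotid body against 4.10 ± 0.29 in adrenal medulla (SD, n = 3), also under the mark (adjusted p = 0.502). Of the ligands, Gdnf was thus the one called.

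Ret was measured by 2 probe sets. The brighter, 1436359_at, was 8.34, 9.10 and 8.37 in carotid body against 6.66, 7.61 and 7.67 in adrenal medulla. Carotid body array 2 was the highest and adrenal medulla array 1 the lowest, and the tissues did not overlap. The difference was 1.29 ± 0.31 (log2, SE; adjusted p = 0.0222), or 2.45-fold with a 95% interval of 1.47 to 4.07. Cohorts 1, 2 and 3 gave 1.68, 1.49 and 0.71.

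The call for Ret rested on single arrays. Without carotid body array 2 the difference was 1.04 (adjusted p = 0.0722), and without adrenal medulla array 1 it was 0.97 (adjusted p = 0.0409), under 2-fold. Against a minimum of 1.5-fold (limma's treat) the adjusted p was 0.279. Markers of ganglion neurons and axons had the same highest and lowest arrays: the summed level of the 11 genes was 6770, 9854 and 7672 in carotid body against 3842, 5618 and 5897 in adrenal medulla. Of these 11, Gap43, a growth cone protein, was called higher in carotid body, while Rbfox3, a neuronal nuclear protein, was called higher in adrenal medulla; the median difference was 0.40. At the low end of the list, Chat, the enzyme that makes acetylcholine, was 3.88 to 3.99 on all 6 arrays. The brightest of the list in adrenal medulla was Isl1, at a mean of 10.76, which is also a factor of sympathoadrenal cells. The summed level is thus not specific to neurons. Glial and smooth muscle lists also had their highest sum on carotid body array 2 (19624 and 44409) and their lowest on adrenal medulla array 1 (4684 and 6172). The part of neuronal, glial or smooth muscle RNA in the Ret difference was not tested.

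The other Ret probe set, 1421359_at, was 5.34, 5.53 and 5.45 in carotid body against 5.22, 5.35 and 5.03 in adrenal medulla. The tissues overlapped, and the difference was 0.24 with a 95% interval of -0.06 to 0.53 (adjusted p = 0.23). This interval does not reach the 1.29 of the brighter probe set, so the Ret result stands on 1 probe set.

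**Figure D2:**
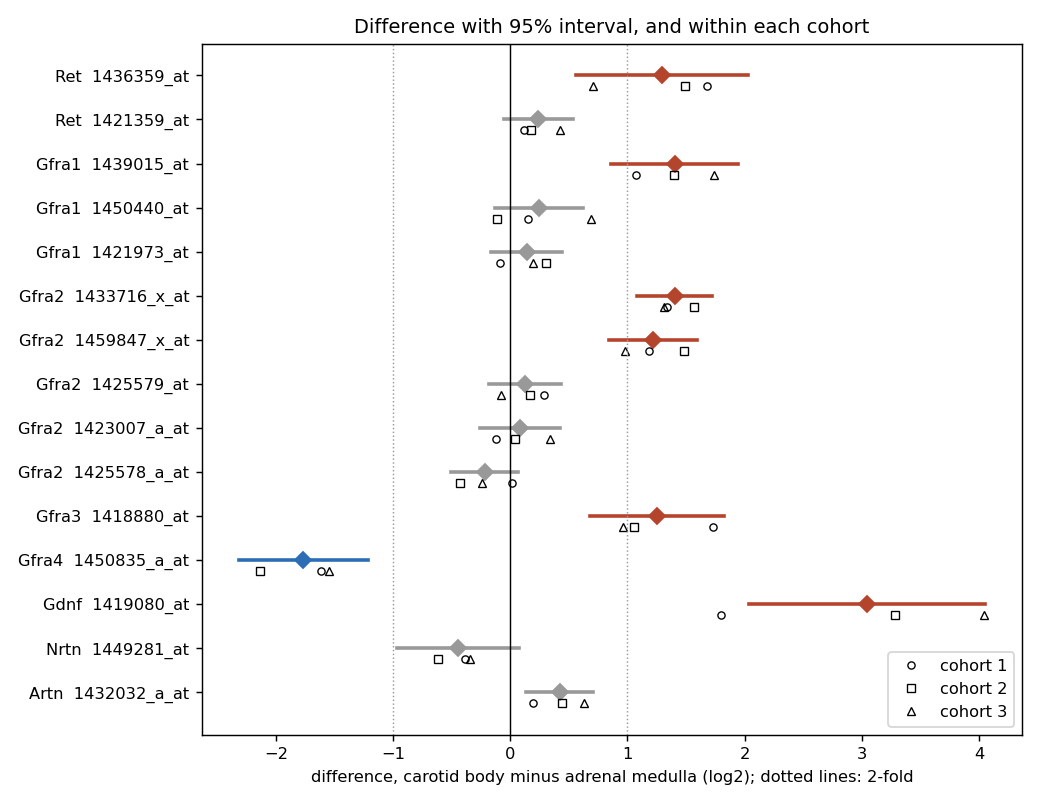
Difference between carotid body and adrenal medulla (log2, horizontal axis) of each member probe set, with diamonds for the estimate and bars for its 95% interval over 3 arrays per tissue; open symbols are the differences within cohorts 1, 2 and 3, and colour marks called probe sets (red higher in carotid body, blue higher in adrenal medulla, grey not called). The estimates run from -1.76 for Gfra4 to 3.04 for Gdnf, and the dimmer probe sets of Ret, Gfra1 and Gfra2 sit near 0.

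Among the co-receptors, Gfra1, which binds GDNF, was 8.30, 8.76 and 9.25 in carotid body against 7.22, 7.36 and 7.52 in adrenal medulla on its brightest probe set, 1439015_at. Every carotid body value was above every adrenal medulla value. The difference was 1.40 ± 0.23 (log2, SE; adjusted p = 0.00474), or 2.64-fold with a 95% interval of 1.82 to 3.85. Within cohorts it was 1.08, 1.40 and 1.74, in the same order of cohorts as for Gdnf. It stayed called without any single array, at 1.16 to 1.64; without cohort 2 the adjusted p was 0.0875 and against a minimum of 1.5-fold it was 0.0676. The other Gfra1 probe sets were dim, at 4.62 to 5.06 and 4.37 to 4.73 (1450440_at) and at 3.62 to 4.01 and 3.63 to 3.71 (1421973_at) in carotid body and adrenal medulla. Their tissues overlapped, with differences of 0.24 and 0.14 (adjusted p = 0.339 and 0.518).

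Gfra2, the co-receptor of neurturin, had 5 probe sets, of which 2 were called. On 1433716_x_at it was 9.90, 10.10 and 10.16 in carotid body against 8.56, 8.53 and 8.85 in adrenal medulla. The difference was 1.40 ± 0.14 (log2, SE; adjusted p = 0.000477), or 2.65-fold with a 95% interval of 2.12 to 3.30. On 1459847_x_at the levels were 8.32, 8.54 and 8.53 against 7.13, 7.06 and 7.56, a difference of 1.22 ± 0.16 (adjusted p = 0.00177). The groups did not overlap on either, and the spread between arrays of a tissue was small beside the difference. Both stayed called without any single array. Without cohort 2, 1433716_x_at was the member probe set still called higher in carotid body, and 1459847_x_at had an adjusted p of 0.051.

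The x in the names of these probe sets marks probes that may also match other transcripts, in Affymetrix's naming. The other 3 Gfra2 probe sets carry no x and were not called. On 1425579_at the levels were 6.09 to 6.48 and 6.17 to 6.23, on 1423007_a_at 5.21 to 5.72 and 5.34 to 5.39, and on 1425578_a_at 4.02 to 4.23 and 4.21 to 4.45, in carotid body and adrenal medulla. Their differences were 0.13, 0.08 and -0.22 (adjusted p = 0.559, 0.748 and 0.251), and that of 1423007_a_at turned negative after quantile normalization and after median centring. The 95% intervals of these 3 ended at 0.44 or below, so the probe sets of Gfra2 did not measure the same difference. Which transcripts each of them detects was not tested.

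Gfra3, the co-receptor of artemin, was 8.37, 8.60 and 8.49 in carotid body against 6.64, 7.55 and 7.53 in adrenal medulla (1418880_at, its single probe set). The carotid body arrays lay close together, and adrenal medulla array 1 was about 0.9 below the others (log2). The difference was 1.25 ± 0.25 (log2, SE; adjusted p = 0.00944), or 2.38-fold with a 95% interval of 1.60 to 3.53. Cohorts 1, 2 and 3 gave 1.73, 1.06 and 0.96. Without adrenal medulla array 1 the difference was 0.95, under 2-fold, with an adjusted p of 0.00544; without cohort 2 the adjusted p was 0.0807, and against a minimum of 1.5-fold it was 0.165. Adrenal medulla array 1 was also lowest of all arrays for Ret and for the ganglion neuron, glial and smooth muscle lists. It was lowest of its tissue for the glomus and chromaffin list.

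Gfra4, the co-receptor of persephin, was the member higher in adrenal medulla. Its level was 4.65, 5.03 and 4.99 in carotid body against 6.26, 7.16 and 6.53 in adrenal medulla (1450835_a_at). The ranges stood more than 1 log2 unit apart. The carotid body values lay just above the olfactory receptor mark of 4.63, where differences may be compressed, and the sizes that follow carry that limit. The difference was -1.76 ± 0.24 (log2, SE; adjusted p = 0.00189), or 3.40-fold higher in adrenal medulla with a 95% interval of 2.32 to 4.97. Cohorts 1, 2 and 3 gave -1.61, -2.14 and -1.54. It was called under all 16 alternatives run on single probe sets, at -1.96 to -1.51. In the same arrays 8 of 9 cortex genes and 6 of 9 glomus and chromaffin genes were called higher in adrenal medulla. Without carotid body array 1, the carotid body array with cortex RNA, the Gfra4 difference was -1.65.

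Glial genes were also set beside the co-receptors called higher in carotid body. Sox10, a transcription factor of Schwann and satellite cells, was 9.83, 10.30 and 10.08 in carotid body against 7.85, 8.25 and 8.04 in adrenal medulla. This was its brightest probe set, and 1 of 3 Sox10 probe sets was called. Mbp, a myelin protein, was 11.83 to 12.07 and 8.27 to 8.75. Of the glial list, Gfap was not called, at 4.98 to 5.66 and 5.03 to 5.16. The summed glial level separated the tissues as widely as given above, and its part in the Gfra1, Gfra2 and Gfra3 differences was not tested.

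**Figure D3:**
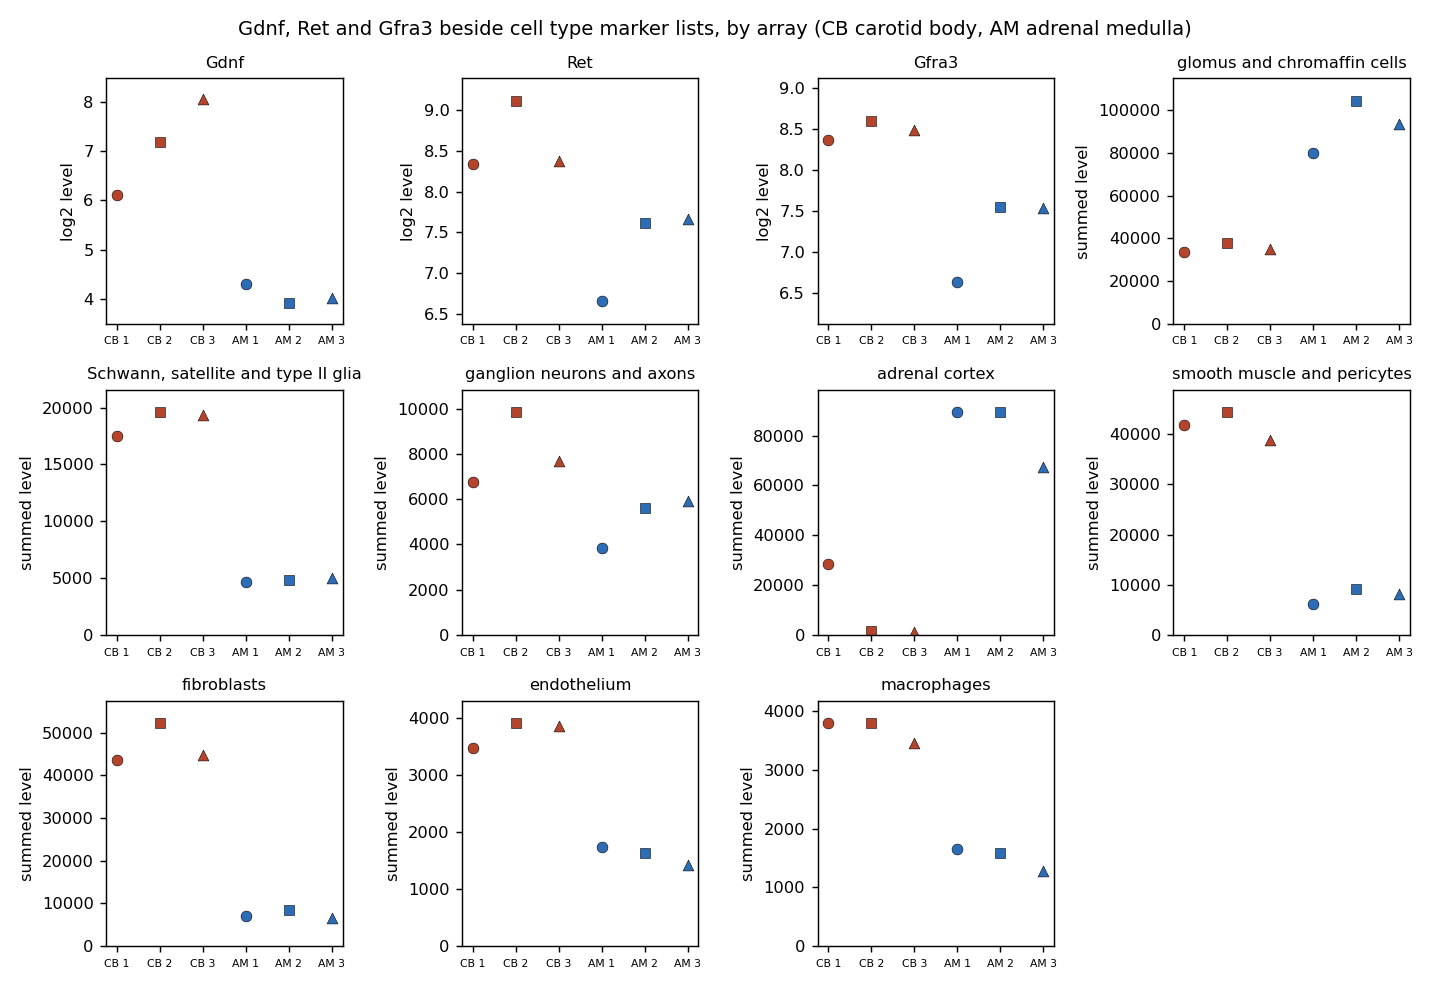
Log2 level of the brightest probe set of Gdnf, Ret and Gfra3, and the summed level of each marker list (sum of values taken out of log2, axis from 0), on carotid body (CB, red) and adrenal medulla (AM, blue) arrays 1 to 3. Ret is highest on carotid body array 2 and lowest on adrenal medulla array 1, as are the ganglion neuron, glial and smooth muscle lists. Carotid body array 1 holds cortex RNA (summed level 28497).

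To place the members among other genes, the 3 genes with the most similar profile were taken for each called member, by the root mean square distance between log2 values centred on their own mean over the 6 arrays. For Gdnf they were Rgs4, Svopl and Sema3g, at distances of 0.29, 0.31 and 0.32. Rgs4, a regulator of G protein signalling, was 11.06, 11.83 and 12.33 in carotid body against 8.71, 8.91 and 8.97 in adrenal medulla, with the carotid body arrays in the order of Gdnf. For Ret they were Reep1, Eln and Trnp1 (0.15, 0.17 and 0.18); Reep1, a protein that shapes the endoplasmic reticulum of neurons, was also highest in its tissue on carotid body array 2 and lowest of all on adrenal medulla array 1. Gfra1 was closest to Gal3st1, which makes the myelin lipid sulfatide, Sccpdh and Nelfcd (0.07, 0.07 and 0.09), and Gfra2 to Igsf3, Lmo7 and B3gnt9 (0.03, 0.08 and 0.09). Gfra3 was closest to Pde4b, a phosphodiesterase that breaks down cyclic AMP, Cyp39a1 and Gcnt2 (0.12, 0.14 and 0.15). Gfra4 was closest to AA986860, Tmem59l and Tunar (0.11, 0.12 and 0.12). These distances rest on 6 arrays in 2 tissues and describe likeness alone. The genes were picked for their profile over these arrays, so a shared order of arrays is built into the choice.

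Other genes of Ret signalling moved both ways, near the rate of the array. Of 97 listed genes outside the 8 members, 83 had a probe set of their own. Of these, 8 were called higher in carotid body (9.64%, against 5.91% of all genes), 5 were higher in adrenal medulla (6.02%, against 6.08%) and 70 were not called. The median difference was 0.09 (log2) beside -0.04 for all genes. With all probe sets of a gene averaged, 3 and 6 were called.

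Among persephin and alternative receptors and modulators, 3 of 14 were called higher in carotid body and 0 the other way (5.91% and 6.08% of all genes). At an adjusted p under 0.05 alone these were 5 and 1 (10.9% and 16.5% of all genes). Lrig3, a membrane protein related to the Ret inhibitor Lrig1, was 6.13 ± 0.31 in carotid body against 4.32 ± 0.05 in adrenal medulla (SD, n = 3). All adrenal medulla values of Lrig3 lay under the olfactory receptor mark, so the difference of 1.81 (adjusted p = 0.000376) carries the same floor limit as that of Gdnf. Sorcs2, a sorting receptor, differed by 1.73 (adjusted p = 0.00138). Gas1, a GPI-anchored protein related to the Gfra family that can bind RET, was 11.31, 10.86 and 10.95 in carotid body against 10.59, 9.72 and 9.72 in adrenal medulla, a difference of 1.03 (adjusted p = 0.0237). The call for Gas1 was lost when array 1 or 2 of carotid body, or 2 or 3 of adrenal medulla, was left out (0.88 to 1.12; adjusted p = 0.0518 to 0.0954). Blocked by cohort, Sorcs1 was called too (1.06; adjusted p = 0.0109, against 0.0725 without).

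Of 22 adaptors that dock on RET, 1 was called, Gab1, which links receptors to PI3 kinase: 10.04, 10.15 and 9.99 in carotid body against 7.91 to 8.39 in adrenal medulla. Its difference was 1.96 ± 0.15 (log2, SE; adjusted p = 0.000183), and 2 of its 3 probe sets were called. Of 15 effectors, 1 was called in each direction (5.91% and 6.08% of all genes). Pik3r1, the regulatory subunit of PI3 kinase, was higher in carotid body at 1.05 (adjusted p = 0.00338). It was under 2-fold when array 1 of carotid body (0.91) or array 3 of adrenal medulla (just under 1.00) was left out. Rap1gap, a brake on the small GTPase Rap1, was 6.87, 6.89 and 6.50 in carotid body against 9.25, 9.29 and 8.75 in adrenal medulla. The difference was -2.34 ± 0.19 (adjusted p = 0.000209).

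Of 14 genes that limit the signal, 1 was called toward carotid body and 0 the other way (5.91% and 6.08% of all genes). The gene was Sh3kbp1, which takes part in receptor uptake, at 1.14 (adjusted p = 0.00136), with 1 of its 4 probe sets called. By an adjusted p under 0.05 alone, the counts were 4 and 1 (10.9% and 16.5% of all genes). The 1 was Ptprf, at -0.93 (adjusted p = 0.00646). Of its 3 probe sets, at -1.77 to -0.93, 1 was called higher in adrenal medulla. Ptprf was named for its direction rather than by the naming rule. None of 6 response genes was called at 2-fold. At an adjusted p under 0.05 alone, 2 were higher in carotid body (10.9% of all genes). These were Myb, at a mean of 3.88 against 3.27 in adrenal medulla, and Wnt11, at 4.66 against 4.07. Both lay under the olfactory receptor mark in adrenal medulla. Myb lay under it in carotid body too, and Wnt11 was close to it there. In the other direction there was 1 (16.5% of all genes), Mycn, at -0.80 (adjusted p = 0.0192).

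**Figure D4:**
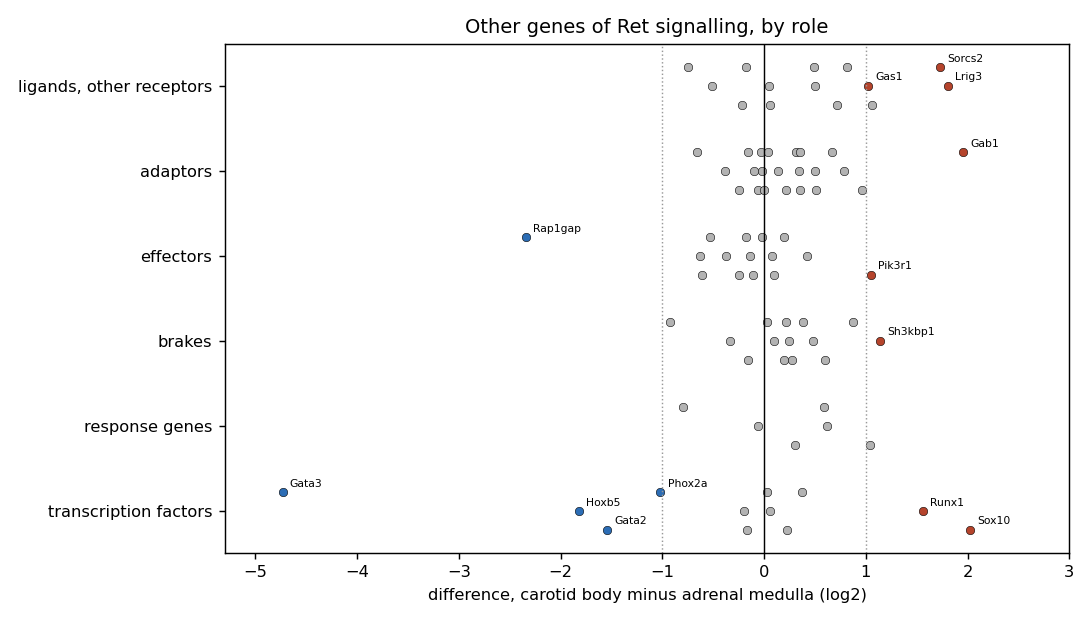
Difference between carotid body and adrenal medulla (log2, horizontal axis) of 83 other genes of Ret signalling by role (rows), each by its brightest probe set; red marks genes called higher in carotid body, blue higher in adrenal medulla, grey not called, and dotted lines 2-fold. Most genes lie between the dotted lines, and the transcription factors spread most widely, from -4.73 for Gata3 to 2.02 for Sox10.

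Transcription factors tied to expression of Ret or its co-receptors went both ways. Called higher in carotid body were 2 of 12, and higher in adrenal medulla 4 of 12 (5.91% and 6.08% of all genes). Sox10 differed by 2.02 and Runx1, which acts in sensory neurons and blood cells, by 1.56 (adjusted p = 0.000223 and 0.00145). Of 3 Sox10 probe sets 1 was called, and of 6 Runx1 probe sets 2 were. The smallest differences among them were 0.35 for Sox10 and 0.06 for Runx1. Gata3, a factor of sympathoadrenal cells, was 6.42, 5.66 and 5.21 in carotid body against 10.18, 10.63 and 10.69 in adrenal medulla, a difference of -4.73 ± 0.30 (adjusted p = 7.76e-05). Gata2 differed by -1.54 (adjusted p = 0.00242) and the homeobox gene Hoxb5 by -1.82 (adjusted p = 0.0221), the latter with adjusted p of 0.0636 to 0.073 without any 1 adrenal medulla array. Phox2a, the remaining call, differed by -1.02 (adjusted p = 0.0154) and was not called when array 1 of carotid body or array 2 or 3 of adrenal medulla was left out (-0.96 to -0.82). Hand2 and Isl1, both sympathoadrenal factors, differed by 0.23 and 0.02 (adjusted p = 0.538 and 0.949) and, like Pspn, were named for their role rather than by the naming rule.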

How the data were processed

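Expression was measured on Affymetrix 3' arrays, 3 per tissue. The authors deposited 1 log2 value per probe set and array, and the submitters' processing notes name Affymetrix Expression Console. Its version, and how it summarised or normalized, is not given in the sources used here. The log2 scale was read from the values, 2.70 to 14.97. No further normalization was applied.

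Of 45101 probe sets, 64 controls were left out. Names came from the platform annotation, in which 34945 probe sets had 1 symbol, 932 several and 9160 none. All 8 members matched a RefSeq table by gene ID, with 0 symbols changed. Gene counts use the brightest of a gene's probe sets (18193 genes).

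The model was limma's (3.58.1, R 4.3.3), lmFit then eBayes with 2 groups, two-sided, with p-values adjusted over 45037 probe sets, and the procedure was tested on simulated data. Precision is limited by the number of arrays. The 3 cohort numbers pair the arrays, as the series states. Deviations of same-numbered arrays correlated at 0.22, 0.08 and 0.16, and those of unlike-numbered arrays at -0.21 to 0.10.

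Every member probe set is named. From the list of Ret signalling genes, the 3 largest called differences in each role and direction are named, or the brightest gene of a role without calls. Members and lists were chosen with earlier results of these data known. Alternatives were a replicate block, quantile normalization, median centring, removal of dim probe sets, trended robust variances, array weights, treat, averaged probe sets, no minimum fold, and leaving out arrays or cohorts. Exact tests on 3 against 3 arrays cannot go below p = 0.1, so none was used.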

Additional observations from a re-analysis of the deposited data

How the results depend on the processing

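The counts of member probe sets called, 6 and 1, stayed within 1.5 times under 15 and 17 of 17 alternatives. The exceptions were treat against 1.5-fold, with 3 higher in carotid body, and leaving out cohort 2, with 1. With the cohort as a replicate block they were 6 and 1 again, and the block changed no call of a member. Leaving out single arrays gave 4 to 6 and 1 to 1 for members, and 6 to 9 and 3 to 6 for Ret signalling genes. Of the latter, 8 and 5 with all data, 3 were called higher in adrenal medulla under treat and without cohort 2, 18 and 11 were called with no minimum difference, and 3 higher in carotid body with averaged probe sets. The difference of 1423007_a_at (Gfra2), 0.08, was -0.021 after quantile normalization, -0.032 with centred arrays, -0.043 without cohort 3 and -0.053 to 0.202 without single arrays. Centring took the median over all probe sets to -0.11. Causes of these changes were not tested. Where arrays were left out, fewer arrays and the loss of those arrays' own values cannot be told apart. Signal near the floor limits Artn, Gdnf, Lrig3, Myb and Wnt11 in adrenal medulla, Gfra4 in carotid body and the dim Gfra1 and Gfra2 probe sets.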
